A study of Mus musculus with 11 samples.

Results

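The Janus kinases Jak1, Jak2 and Tyk2, the transcription factors Stat3, Stat5a and Stat5b and the feedback inhibitors Socs1, Socs3 and Cish were examined for occupancy by PU.1 in erythroid cells. These 9 genes were chosen by name out of 22367 protein-coding genes, and the region of each was its gene body with 10 kb on each side. ChIP-Seq was performed with an antibody against PU.1 in MEL cells, a murine erythroleukemia line, and in ES-EP, which are erythroid progenitors derived from embryonic stem cells. The MEL cells were labelled clone 4 and carried a stably introduced Gata-1 fused to ER, and they were grown with puromycin. The ES-EP were grown with Epogen, hIGF-1, dexamethasone and murine SCF, so that the cell type, the transgene and the medium cannot be told apart. For each cell type 2 chromatin preparations, A and B, were each sequenced as 2 libraries, and input DNA was sequenced as 1 library from MEL cells and 2 from ES-EP.

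PU.1, the product of Sfpi1, is an ETS family transcription factor that binds purine-rich DNA with a GGAA core. Macrophages and B lymphocytes do not form without it, and raised levels in erythroblasts, as from proviral insertion at Sfpi1, are a classic lesion of murine erythroleukemia. In the JAK-STAT pathway a cytokine receptor activates the Janus kinases bound to it, which phosphorylate STAT proteins that then move to the nucleus. In erythroid progenitors the erythropoietin receptor signals through Jak2 to Stat5a and Stat5b, and the SOCS proteins and Cish, which Stat5 induces, act back on the receptor and its kinase.

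Reads placed on the genome numbered between 5697937 and 7095855 per ChIP preparation, with 4278560 MEL input reads and 7488885 ES-EP input reads. The preparations differed in yield. Of all ChIP reads, 7.22% in MEL A, 9.89% in MEL B, 13.0% in ES-EP A and 7.60% in ES-EP B fell in the 500 bp at a site, against 1.94% of MEL input and 5.00% of ES-EP input. The positive control was the called site 13.0 kb upstream of Sfpi1, taken as its upstream regulatory element, a known PU.1 target. It had 120 ChIP reads in MEL cells, 10.1 times the scaled input (95% exact interval 3.85 to 37.7). In ES-EP it had 71, 13.2 times (4.35 to 65.8). MEL A had 23 reads there (ratio 4.32) and MEL B 97 (14.8), while ES-EP A had 33 (13.1) and ES-EP B 38 (13.4). Because this site was picked from those called on the same reads, its enrichment is no independent check. At the start site of the muscle gene Myog the pooled ratios were 0.899 in MEL cells (0.216 to 5.26) and 1.68 in ES-EP (0.300 to 17.0). That window was placed by the annotation, so the controls are not like for like. Intervals of a ratio, here and below, cover counting error only, while those of a log2 difference come from the limma fit over the preparations. At called sites the window was placed where ChIP reads were highest, within a region called for its excess over input. Ratios there thus tend to be too high, which the intervals do not allow for. Preparations A and B of a cell type were set against the same input reads, so their ratios are not independent.

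A site was a region where pooled ChIP reads in 500 bp windows exceeded the local input in a Poisson test. By this call 8 of the 9 genes had a site in MEL cells and 7 had one in ES-EP. Such sites were frequent, since 63.6% of all protein-coding genes had one in MEL cells, and 50.9% did in ES-EP. The median gene length was 25.8 kb for the members against 15.4 kb for all genes, although Socs1 (1.73 kb), Socs3 (3.97 kb) and Cish (6.76 kb) were shorter. Both cell types had a site at 7 members, against 45.8% of all genes, and 1 member, Cish, had none in either, against 31.3%. Within 2 kb of an annotated start site 7 members had a MEL site and 6 an ES-EP site, against 46.7% and 28.8% of all genes. Any annotated start counted, and Stat3 had such a site 891 bp from a start inside the gene. That site lay 41.9 kb past the start of its longest coding transcript. With ES-EP preparation B alone 3 members kept a site in ES-EP (Stat3, Stat5a and Stat5b), where 17.3% of genes did. With MEL preparation A alone 6 kept one in MEL cells, where 26.5% of genes did, and Tyk2 and Socs3 lost theirs.

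The regions held 20 merged sites, of which 7 were called in both cell types, 7 in MEL cells alone and 6 in ES-EP alone. Of all 34298 merged sites 31.8% were called in both. A site called in 1 cell type alone entered the list through the cell type where its reads were high, so at such sites a difference between the cell types is given as a description and is no independent support. Stat5a and Stat5b shared 2 of the 20 sites and Stat3 and Stat5a shared 1, because these genes lie side by side on chromosome 11. The following sequences, from the NCBIM37 genome (mm9, plus strand), are the 300 bp centred on 5 of the 20 sites. The PU.1 word GAGGAA or its reverse complement is in capitals. They are a Stat5b intron site with the highest ratio, among member sites with input reads, in both cell types (chr11:100687951-100688250), a Stat3 intron site called in both cell types (chr11:100758801-100759100), a Stat3 intron site called in ES-EP alone (chr11:100752901-100753200), a second Stat5b intron site called in ES-EP alone (chr11:100675701-100676000) and a Jak1 intron site called in MEL cells alone (chr4:100933401-100933700).
Stat5b intron, both cell types: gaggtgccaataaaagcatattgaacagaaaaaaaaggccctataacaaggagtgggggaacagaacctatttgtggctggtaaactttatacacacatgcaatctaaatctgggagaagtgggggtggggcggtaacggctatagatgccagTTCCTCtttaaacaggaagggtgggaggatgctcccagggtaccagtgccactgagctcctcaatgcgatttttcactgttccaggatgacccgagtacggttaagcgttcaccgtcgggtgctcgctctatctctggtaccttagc
Stat3 intron, both cell types: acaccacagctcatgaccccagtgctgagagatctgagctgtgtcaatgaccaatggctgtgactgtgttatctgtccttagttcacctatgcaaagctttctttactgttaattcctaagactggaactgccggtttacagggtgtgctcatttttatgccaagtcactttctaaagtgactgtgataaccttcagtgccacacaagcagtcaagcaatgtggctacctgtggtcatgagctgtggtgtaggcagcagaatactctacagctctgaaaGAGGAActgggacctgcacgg
Stat3 intron, ES-EP: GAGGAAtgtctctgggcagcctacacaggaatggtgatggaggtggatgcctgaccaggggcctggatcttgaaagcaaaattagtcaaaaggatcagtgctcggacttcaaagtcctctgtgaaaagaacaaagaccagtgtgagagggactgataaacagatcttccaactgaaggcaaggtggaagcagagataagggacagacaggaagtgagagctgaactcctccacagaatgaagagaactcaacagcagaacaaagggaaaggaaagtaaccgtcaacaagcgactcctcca
Stat5b intron, ES-EP: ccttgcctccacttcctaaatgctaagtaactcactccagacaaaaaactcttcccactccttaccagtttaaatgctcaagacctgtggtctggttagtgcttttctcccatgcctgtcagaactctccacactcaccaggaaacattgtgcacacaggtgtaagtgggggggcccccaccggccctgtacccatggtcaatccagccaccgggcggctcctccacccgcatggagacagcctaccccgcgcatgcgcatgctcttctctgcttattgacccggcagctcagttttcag
Jak1 intron, MEL: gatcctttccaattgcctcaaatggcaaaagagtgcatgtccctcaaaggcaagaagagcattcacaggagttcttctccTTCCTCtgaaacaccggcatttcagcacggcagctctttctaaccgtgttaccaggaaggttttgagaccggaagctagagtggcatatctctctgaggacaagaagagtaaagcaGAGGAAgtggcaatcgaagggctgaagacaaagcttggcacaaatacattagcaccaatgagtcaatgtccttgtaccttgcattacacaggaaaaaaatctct

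The word GAGGAA, searched on both strands of the 300 bp at each summit, was present at 7 of the 20 member sites and at 45.1% of all sites. The longer word GAGGAAGT, which contains it, was present at 3 member sites and 18.2% of all sites, all 3 of them at Jak1 or Socs3. The GATA word AGATAA was present at 4 member sites, all in Stat3, and at 14.9% of all sites. The STAT word TTCNNNGAA was present at 1 member site, 9.10 kb downstream of the Socs3 start site, and at 7.59% of all sites. In the 500 bp at the start sites GAGGAA was present for 3 of the 9 members and 41.2% of all genes, and GAGGAAGT for 0 members and 4.16% of all genes. A match is a description of the letters and not a binding site. The printed sequences are a selection and do not show how frequent GAGGAA was at the member sites. The Jak1 sites 66.8 and 38.6 kb past the start, which had an unadjusted p below 0.05 between the cell types (limma voom), held no GAGGAA and are not printed.

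**Figure D1:**
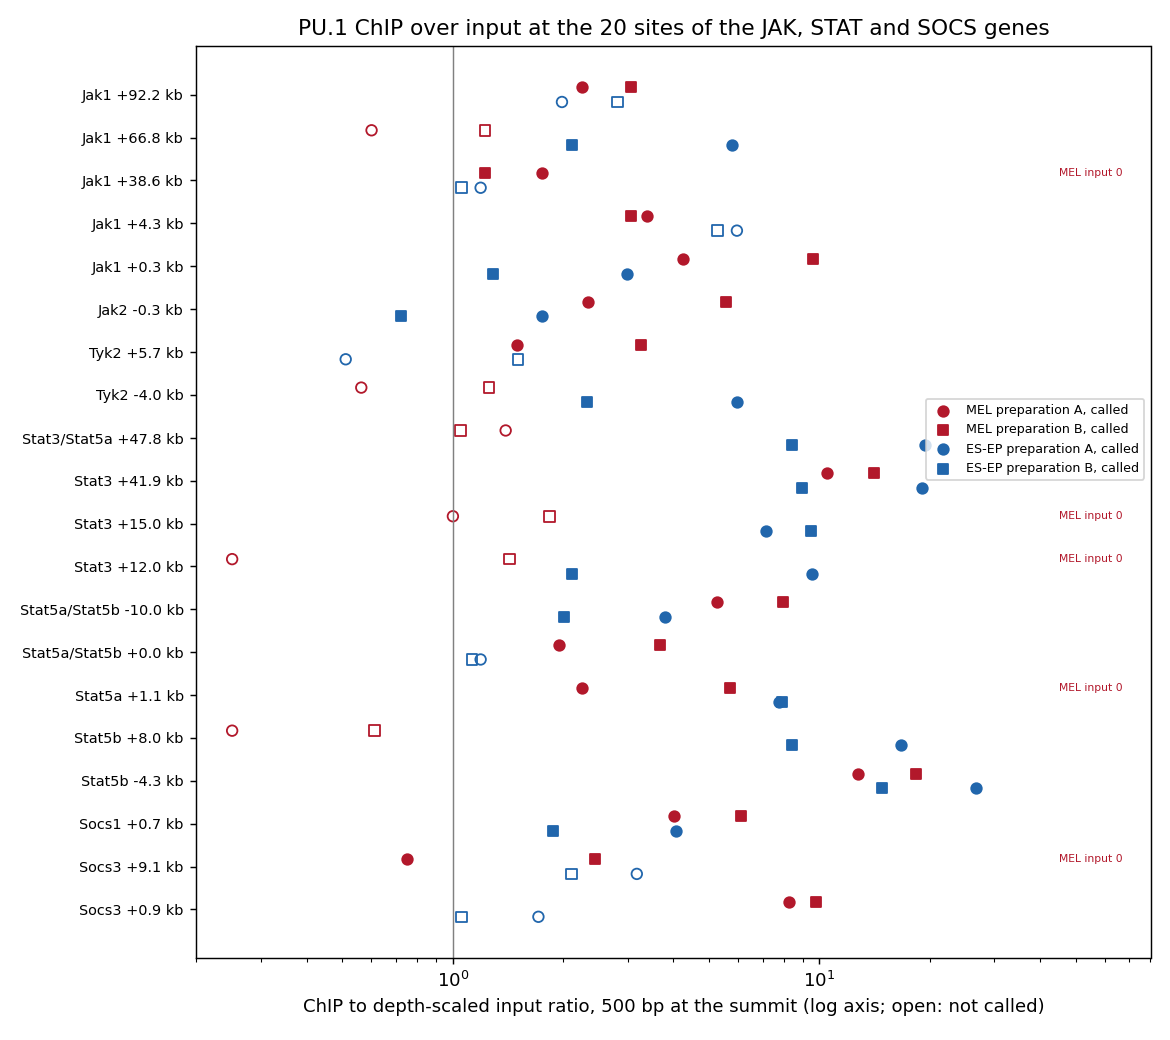
Ratio of ChIP to depth-scaled input in 500 bp at each of the 20 sites (log axis), labelled by gene and distance from its start site, for preparations A (circles) and B (squares) of MEL cells (red) and ES-EP (blue). Filled symbols mark sites called in that cell type. Where MEL input is 0 a floor of 3 reads was used, so the MEL ratio there depends on that floor. The Stat5b site 4.26 kb upstream lies between 12.8 and 26.8 in all 4 preparations.

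Among the kinases, Jak1, which serves many cytokine receptors, had 5 sites along its 113 kb gene on chromosome 4. The site 286 bp past its start site (chr4:100937101-100938250, intron) had the highest ratio in MEL cells among those with input reads there and was called in both cell types. It had 17 reads in MEL A, 47 in MEL B and 3 in MEL input, and 80 in ES-EP A, 39 in ES-EP B and 32 in ES-EP input. The MEL ratio to scaled input was 7.20 (2.35 to 35.8), and that of ES-EP was 2.08 (1.40 to 3.18). ES-EP A was the highest and MEL A the lowest after scaling by depth, and the cell types overlapped. Of the 2 Jak1 sites called in ES-EP, the one with the higher ratio lay in an intron 66.8 kb past the start site and was called in ES-EP alone, with 29 and 12 reads in ES-EP A and B against 6 of input (ratio 3.82, 1.61 to 11.0) and 4 and 10 reads in MEL A and B against 5 of input (0.944, 0.321 to 3.35). Both ES-EP preparations were above both MEL preparations there, and the log2 difference of MEL minus ES-EP was -1.38 (SE 0.65, limma adjusted p = 0.224). It was -0.67 without ES-EP A and -2.08 without ES-EP B. The site 38.6 kb past the start was called in MEL cells alone on 7 and 6 reads against 0 of input, with 1 and 1 reads in ES-EP and 1 of input. Its log2 difference was 2.29 (SE 1.10, limma adjusted p = 0.23), and 1.24 on log2 CPM plus 0.5. The other 2 sites, also in introns and called in MEL cells alone, had similar or higher ratios in ES-EP. At 92.2 kb past the start MEL A and B had 6 and 10 reads against 2 of input (2.698, 0.634 to 24.2), while ES-EP had 5 and 8 against 3 (2.43, 0.666 to 13.3). At 4.34 kb, where the sequence above holds GAGGAA on each strand, MEL A and B had 9 and 10 reads against 2 of input (3.20, 0.773 to 28.4), while ES-EP had 5 and 5 against 1 (5.60, 0.796 to 243). By CPM both MEL preparations, at 1.58 and 1.43, were above both of ES-EP, at 0.796 and 0.705, and the higher ES-EP ratio rests on 1 input read.

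Jak2, the kinase of the erythropoietin receptor, had a single site, 317 bp upstream of its start site on chromosome 19 (chr19:29325401-29327050). It had 28 reads in MEL A, 82 in MEL B and 9 in MEL input (ratio 4.12, 2.09 to 9.25). In ES-EP it had 56 and 26 reads against 38 of input (1.21, 0.813 to 1.82). The site was called in ES-EP although ES-EP B, at 0.722 times the scaled input, was below input at the summit. Jak2 had no site in ES-EP with 200 bp windows, an adjusted p below 0.01, library 1 or library 2 alone, or without ES-EP A. MEL B was the highest and ES-EP B the lowest preparation after scaling to total reads (CPM). Over the whole region MEL input held 3.37 times the depth-scaled reads of ES-EP input, the widest gap of the 9 regions, and the part of this in the values at Jak2 was not tested.

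Tyk2, a kinase of interferon and interleukin receptors, had 2 sites on chromosome 9. The site 5.74 kb past its start lay in a coding exon and was called in MEL cells alone, with 6 and 16 reads in MEL A and B against 3 of input (2.47, 0.743 to 12.9) and 3 and 10 in ES-EP against 7 (1.04, 0.385 to 3.08). The site 4.01 kb upstream was called in ES-EP alone, with 25 and 11 reads against 5 of input (4.03, 1.58 to 13.2). In MEL cells this window held more reads, 15 and 41, but 20 reads of input (0.944, 0.558 to 1.66). By CPM the cell types overlapped at both sites. Tyk2 had no MEL site with an adjusted p below 0.01, with library 1 or library 2 alone, or without MEL B. It had no ES-EP site with a 2 kb flank, with library 1 alone, or without ES-EP A. MEL input held 2.18 times the depth-scaled reads of ES-EP input over the Tyk2 region, and its part in the call was not tested.

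**Figure D2:**
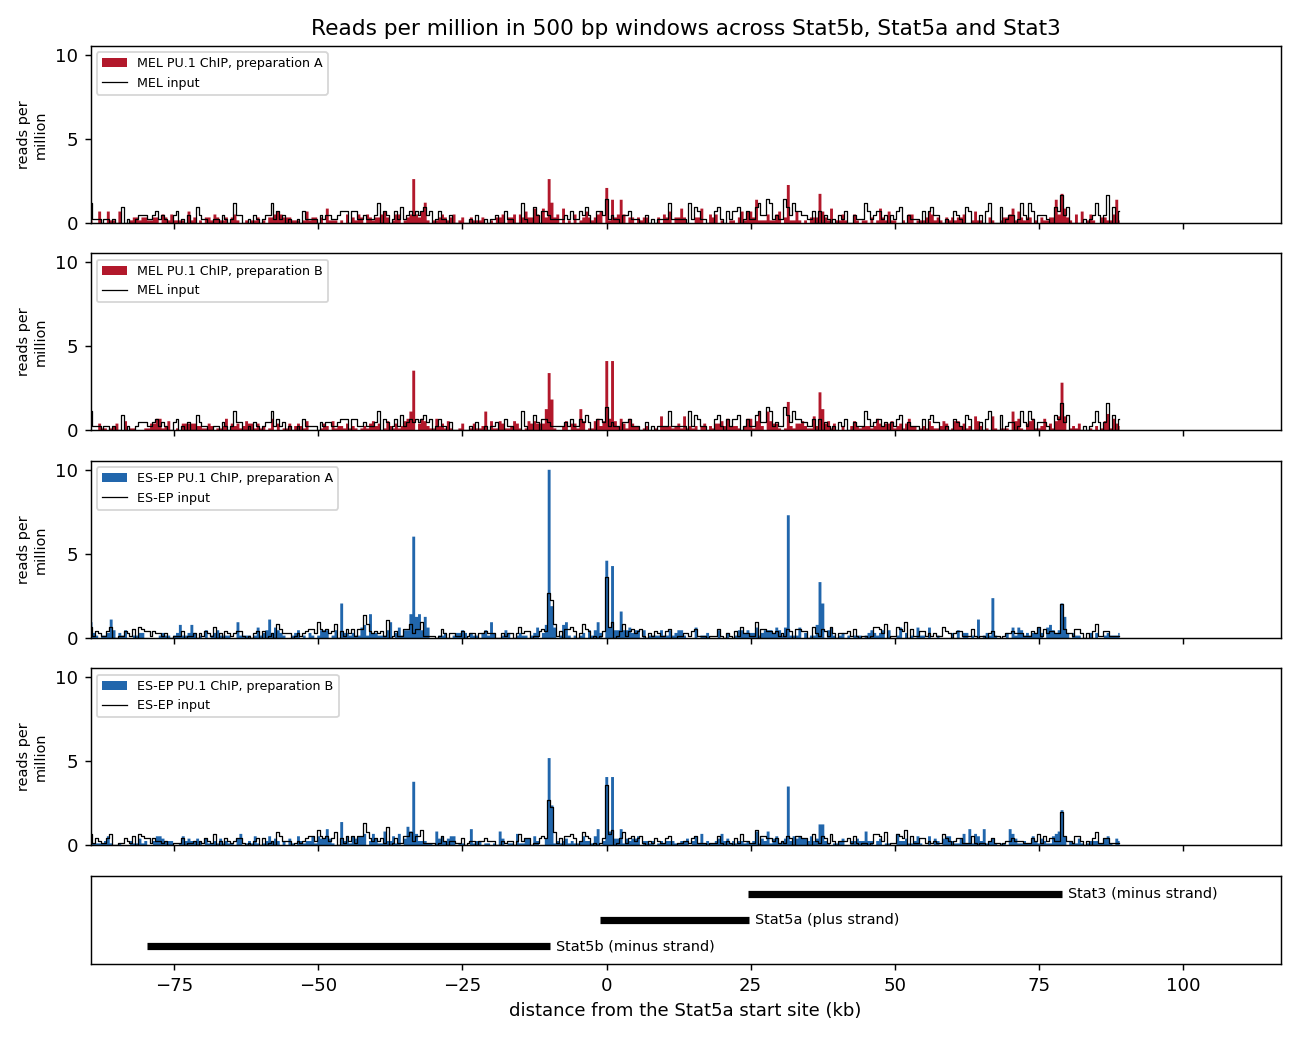
CPM in 500 bp windows against distance in kb from the Stat5a start site, across Stat5b, Stat5a and Stat3, for each ChIP preparation (filled) and the input of the same cell type (black line); bars at the bottom mark the genes. ChIP reads of all 4 preparations rise above input within Stat5b, to the left of its annotated 5′ end, and ES-EP input itself is raised at the starts of Stat5b, Stat5a and Stat3.

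Stat5b and Stat5a, the paralogous STATs activated by erythropoietin, and Stat3, which the interleukin-6 family activates, held 9 of the 20 sites. Among member sites with input reads, the one with the highest ratio was in an intron of Stat5b, 4.26 kb upstream of the start of its longest coding transcript (chr11:100687601-100688650). It had 17 reads in MEL A, 30 in MEL B and 1 in MEL input, and 45 in ES-EP A, 28 in ES-EP B and 2 in ES-EP input. The MEL ratio was 15.9 (2.71 to 639), and that of ES-EP was 20.4 (5.46 to 172). All 4 preparations were above scaled input, and the log2 difference between the cell types was -0.57 (95% interval -1.91 to 0.76, limma adjusted p = 0.629). A second Stat5b intron site, 7.99 kb past that start, was called in ES-EP alone. It had 14 and 8 reads in ES-EP A and B against 1 of input (12.3, 1.99 to 508) and 1 and 3 reads in MEL A and B against 3 of input (0.450, 0.0761 to 3.07). Both ES-EP preparations were above both of MEL, and the log2 difference was -2.15 (SE 0.93, limma adjusted p = 0.181). When limma was run on log2 depth-scaled reads (CPM) plus 0.5 the difference was -1.41 and the adjusted p was 0.0456, on the same reads that placed the site in the list.

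The site at the annotated 5′ end of Stat5b (chr11:100711451-100712550, an exon outside the coding sequence) also lies in the region of Stat5a, 10.0 kb upstream of its start. It had 14 and 26 reads in MEL A and B against 2 of input (6.75, 1.75 to 57.6) and was called in both cell types. ES-EP A and B had 67 and 40 reads against 21 of input (2.85, 1.77 to 4.80). By CPM both ES-EP preparations were above both MEL preparations, whereas the ratio to input was higher in MEL cells, where input was lower. The log2 difference of reads was -1.35 (SE 0.69, limma adjusted p = 0.265), and with median-ratio scaling it passed (adjusted p = 0.048). It was -0.67 with library 1 alone and -0.88 without ES-EP A, and taking ChIP minus input turned it to 0.90 (limma adjusted p = 0.714). At the start of Stat5a itself the site was called in MEL cells alone, with 13 and 30 reads against 5 of input (2.90, 1.15 to 9.38), and ES-EP had 29 and 31 reads against 29 of input (1.16, 0.732 to 1.87). A further site 1053 bp into Stat5a was called in both cell types, with 9 and 28 reads in MEL cells against 0 of input. With the floor of 3 input reads its MEL ratio was 4.16, and the exact lower limit at 0 input was 3.22. ES-EP had 26 and 30 reads there against 4 of input (7.84, 2.90 to 29.8). By CPM both ES-EP preparations were above both of MEL at these last 2 sites as well.

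Stat3 had 4 sites, all in introns, and all 4 were called in ES-EP while 1 was called in MEL cells. The site called in both lay 41.9 kb past the start (chr11:100758301-100759500). It had 14 and 23 reads in MEL A and B against 1 of input (12.5, 2.11 to 506) and 32 and 17 in ES-EP A and B against 2 of input (13.7, 3.60 to 116), and the preparations of the cell types overlapped. The site 47.8 kb past the start, which also lies in the region of Stat5a and had its highest ratio in ES-EP, had 49 and 24 reads in ES-EP A and B against 3 of input (13.6, 4.48 to 67.6). In MEL cells it had 13 and 12 reads against 7 of input (1.20, 0.507 to 3.30). Both ES-EP preparations were above both of MEL, and the log2 difference was -1.35 (SE 0.66, limma adjusted p = 0.243). With median-ratio scaling the adjusted p was 0.0456, on the reads by which the site was called in ES-EP alone. The difference was -0.74 without ES-EP A and -3.14 on ChIP minus input. The remaining 2 sites, 14953 and 12003 bp past the start, were called in ES-EP alone but held reads in MEL cells too. The first had 6 and 9 reads in ES-EP A and B against 1 of input, while MEL A and B had 4 and 9 against 0 (log2 difference -0.16, SE 0.66). The second had 16 and 4 reads in ES-EP A and B against 2 of input, while MEL A and B had 1 and 7 against 0. The cell types overlapped at both.

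Among the inhibitors, Socs1, which blocks the kinase domain of JAK proteins, had a site over its coding exon, 678 bp past its start (chr16:10784251-10785650). It had 32 and 60 reads in MEL A and B against 6 of input (5.17, 2.29 to 14.5) and 109 and 57 in ES-EP A and B against 32 of input (2.90, 1.98 to 4.38). All 4 preparations were above scaled input, and the cell types overlapped. Socs3, which acts on receptors of the interleukin-6 family and on JAK proteins, had 2 sites, both called in MEL cells alone. The one with more MEL reads, 949 bp past its start (chr11:117829101-117830900), had 11 and 16 reads in MEL A and B against 1 of input (9.11, 1.501 to 373) and 23 and 16 in ES-EP against 16 of input (1.36, 0.745 to 2.61). By ChIP CPM the cell types overlapped there (log2 difference -0.44, 95% interval -1.68 to 0.80), while MEL input was 1 read and ES-EP input 16. The other Socs3 site, between genes 9.10 kb past the start, was called on 3 and 12 reads in MEL A and B against 0 of input. With the floor of 3 input reads the pooled MEL ratio was 1.69, and MEL A alone was at 0.751. The exact lower limit of the pooled ratio at 0 input was 1.21. ES-EP had 8 and 6 reads at this site against 3 of input (2.61, 0.729 to 14.2). With 200 bp windows or without the local background Socs3 had a site in ES-EP as well. Cish, an inhibitor that binds the erythropoietin receptor, had no site in either cell type. Over its region on chromosome 9 the ratio of ChIP to input was 0.809 and 0.961 in MEL A and B, while it was 1.09 and 1.01 in ES-EP A and B. Without the local background Cish had a site in both cell types, and with 200 bp windows it had one in ES-EP.

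**Figure D3:**
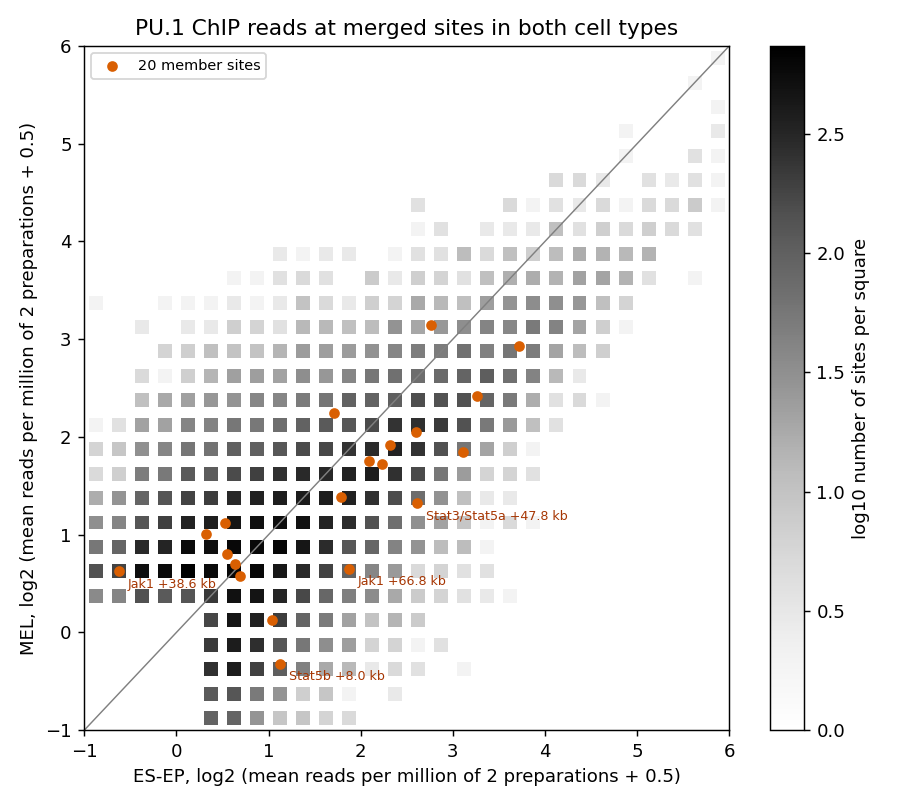
Mean CPM of 2 preparations plus 0.5, on a log2 scale, in ES-EP (horizontal) and MEL cells (vertical), for all merged sites (grey squares, darker with more sites) and the 20 member sites (orange); the line marks equal values. The 4 labelled sites are those with an unadjusted p below 0.05 (limma voom), each called in 1 cell type alone, and 3 of them lie below the line. Of all 34298 merged sites 6489 had such a p.

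Whether occupancy at these genes differed between the leukemic and the normal cells was tested over the preparations with limma and Benjamini-Hochberg adjustment over all sites. None of the 20 member sites passed an adjusted p of 0.05 by limma voom, where 2.44% of all sites did. By the same fit 4 member sites had an unadjusted p below 0.05, all 4 of them called in 1 cell type alone. Of all 34298 sites 6489 had such an unadjusted p. With limma on log2 depth-scaled reads (CPM) plus 0.5, 1 member site passed the adjusted p, as did 2196 of all 34298 sites. With median-ratio scaling 2 member sites passed, as did 3149 of all. At 8 of the 20 sites the preparations of the cell types did not overlap, with ES-EP higher at 6 of them and MEL cells higher at 2, and 6 of the 8 were called in 1 cell type alone. Of all sites 50.9% did not overlap and 25.2% had both ES-EP preparations higher. The median log2 difference of MEL minus ES-EP was -0.48 over the member sites and -0.14 over all sites, which median-ratio scaling moved to -0.02. Taking ChIP minus input in each cell type turned the direction, with a median of 0.79 over the member sites, 12 of 20 above 0, and 0.63 over all sites. Every member site with 0 MEL input reads was among those 12, so their sign depends on how an input of 0 is treated. With the floor of 3 input reads the MEL ratio was below that of ES-EP at all of these except the Jak1 site 38.6 kb past the start.

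**Figure D4:**
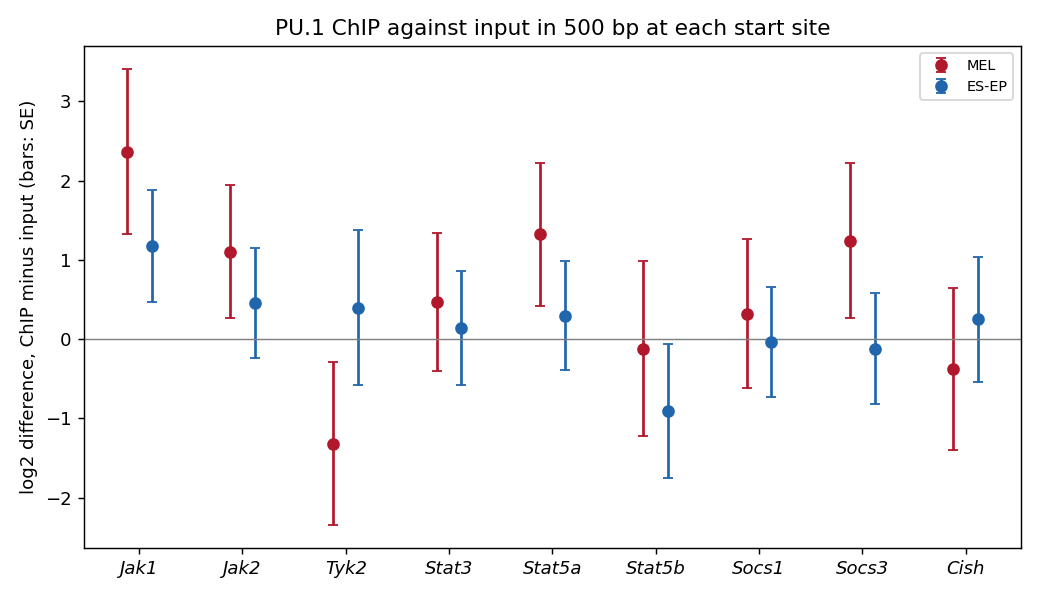
Log2 difference of ChIP minus input in the 500 bp at the start site of each member, fitted with limma voom, in MEL cells (red) and ES-EP (blue); bars are the SE. The largest difference is 2.37 for Jak1 in MEL cells.

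Windows placed at the start sites by the annotation, and not by the reads, were tested in the same way. None of the 9 members passed in ChIP against input, where 2.85% of all start sites passed as higher with the MEL preparations and 2.29% with those of ES-EP. Over all start sites the median log2 difference of ChIP minus input was 0.50 for MEL and 0.16 for ES-EP. Median-ratio scaling moved these medians to -0.68 and -0.37. The direction of the calls over all start sites depended on the processing in MEL cells, where 638 were higher and 22 lower in ChIP as reported. With median-ratio scaling 93 were higher and 389 lower. Limma on log2 CPM plus 0.5, which kept the scaling to total reads but not the voom weights, gave 0 higher and 70 lower. All of these fits took the 2 ES-EP input libraries as separate samples. With these summed to 1 sample, 2 start sites passed in MEL cells (3232 at an unadjusted p below 0.05) and 0 in ES-EP (1614). The closest was Jak1, with 11 and 31 reads in MEL A and B against 2 of input and 46 and 33 in ES-EP A and B against 18. Its log2 difference of ChIP minus input was 2.37 in MEL cells (SE 1.04, limma adjusted p = 0.209) and 1.18 in ES-EP (SE 0.70, limma adjusted p = 0.534). The MEL difference was 1.24 with median-ratio scaling (limma adjusted p = 0.525), 1.79 without MEL B (0.499) and 2.95 without MEL A (0.0839). For Stat5b the start of the longest coding transcript lies 28196 bp inside the gene, and at the 5′ end of the gene the MEL difference was 3.08 (SE 1.15, limma adjusted p = 0.123) in place of -0.12 (SE 1.11). The choice of start turned the sign of other members too. At the 5′ end of Stat5a, with 2 and 2 reads in MEL A and B against 3 of input, the difference was -1.05 in place of 1.32 in MEL cells, and for ES-EP it was -0.52 in place of 0.30. At that of Socs3 the MEL difference was -1.03 in place of 1.24. None of these passed. Tyk2 had 1 and 4 reads in MEL A and B against 4 of input at its start, a log2 difference of -1.32 with an SE of 1.02, so that a change of that size was not detectable at this depth. Between the cell types 0 of 22367 start sites passed (0%, limma voom), with 1289 at an unadjusted p below 0.05 and none of the members among them.

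For context, 41 other genes of the pathway were examined. In MEL cells 38 of them had a site, where 63.6% of all genes did, and in ES-EP 36, where 50.9% did. Of the kinases and STATs 5 of 5 had a MEL site and 4 an ES-EP site, and of the inhibitors and phosphatases 14 of 14 had both. Of the 13 receptors 12 had a MEL site and 10 an ES-EP site, and of the 9 Stat5 targets 7 had a MEL site and 8 an ES-EP site. Genes were ranked by the highest pooled ratio at their called sites, which favours sites with few input reads. The top 3 in MEL cells were the phosphatase genes Ptpn1 (22.6, 3.92 to 906, 1 input read) and Ptpn2 (19.3, 7.44 to 71.5, 4 input reads) and Sh2b3 (13.1, 5.51 to 40.8, 5 input reads). Sh2b3 encodes an adaptor which restrains Jak2. Sites with 0 input reads were ranked with the floor of 3 reads, so their place depends on it. The start sites of Ptpn2, Sh2b3 and Mcl1 passed in ChIP against input in both cell types, and that of the receptor gene Csf2rb passed in ES-EP. None of these passed with the ES-EP input summed (lowest limma adjusted p = 0.100) or with limma on log2 CPM plus 0.5 (0.0528). With median-ratio scaling all 4 passed in ES-EP (highest limma adjusted p = 5.85e-06), while in MEL cells only Mcl1 did (0.0108). By the same ranking of genes, the 3 highest pooled ratios in ES-EP were near the survival gene Mcl1 (29.1, 9.78 to 143, 3 input reads), the cytokine gene Osm (26.6, 7.16 to 223, 2 input reads) and the receptor gene Ifngr1 (16.4, 5.44 to 81.1, 3 input reads). In ES-EP A and B alone they were 39.3 and 20.1 for Mcl1, 42.9 and 12.1 for Osm, and 19.5 and 13.7 for Ifngr1. Of the 112 sites in these regions 4 passed between the cell types with limma, where 2.44% of all sites did, and each of the 4 was called in 1 cell type alone. Without MEL A, and likewise without MEL B, limma passed 0 of all sites, with 3841 and 4443 at an unadjusted p below 0.05. A site near Pias3, within an intron of Ankrd35, had 74 and 80 reads in MEL A and B but 1 and 1 in ES-EP (log2 difference 5.78, SE 1.13, limma adjusted p = 0.000574). A site in the Socs4 region, within an intron of Mapk1ip1l, had 20 and 16 reads in MEL A and B but 0 and 0 in ES-EP (5.29, SE 1.12, limma adjusted p = 0.00212). A second Mcl1 site was higher in MEL cells (2.42, SE 0.73, limma adjusted p = 0.043), and the Osm site was higher in ES-EP (-2.22, SE 0.68, limma adjusted p = 0.0463).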

How the data were processed

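Sequencing (Illumina GAII) and alignment to mm9 (ELAND) were done by the authors, who retained reads with a unique placement. The ELAND version is not given in the sources used here. Each line of the deposited files is 1 aligned read with no score or other measured value, so every count was made here. Starts were checked on 2000 reads of each library against the NCBIM37 genome (mm9) and are counted from 1. Genes were the protein-coding genes of GENCODE M1.

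Read starts were moved by 70 bp (MEL) or 65 bp (ES-EP). Sites were called in 500 bp windows moved by 50 bp, with libraries pooled by cell type and at most 1 read per position, strand and library, by a one-sided Poisson test against the largest of the scaled input in the window, in the surrounding 1, 5 and 10 kb, and the genome mean. A threshold of 0.05 applied to the Benjamini-Hochberg rate and to the rate with ChIP and input exchanged, both of which are over windows, not regions. Overlapping regions of the cell types were merged, and all reads were counted in 500 bp at each summit. Ratios used total reads for scaling, a floor of 3 reads for an input of 0 and 95% Clopper-Pearson intervals.

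Differences were fitted with limma 3.58.1 (voom, two-sided) in R 4.3.3, with the 2 libraries of a preparation summed and the preparation as replicate. The start site was that of the longest coding transcript. ChIP against input used 7 samples, and MEL cells have a single input library, assumed to vary like the others. The 2 ES-EP input libraries entered as separate samples although no label says that they came from separate chromatin, so this fit may count more samples than there were preparations, and a fit with them summed was added after seeing the data. Python 3 scripts were tested on simulated data. Members were named by their strongest site in each cell type, other pathway genes by the 3 highest ratios or a passing test. The members and lists were chosen with earlier results of these data known. Letters A and B carry no label that pairs the cell types.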

Additional observations from a re-analysis of the deposited data

Results flagged for a closer look

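At 4 sites or start-site windows of the members the preparations of one cell type lay above scaled input and those of the other below it. The share of all sites or start sites with this pattern was not computed, so how usual it is cannot be told. At the Stat5b intron site 7.99 kb past its start, ES-EP A and B were 16.7 and 8.44 times the scaled input and MEL A and B 0.2503 and 0.612 times, and the log2 difference of ChIP minus input (MEL minus ES-EP) was -3.89 (limma adjusted p = 0.142). At the start site of Tyk2 this difference was -1.71 (SE 1.42, limma adjusted p = 0.891), at that of Socs3 1.36 (SE 1.20, limma adjusted p = 0.906) and at that of Cish -0.63 (SE 1.29, limma adjusted p = 0.961). None of the 4 passed the test of the difference itself, and the windows at Tyk2 and Cish held at most 7 ChIP reads in any preparation. At the 5′ end of Socs3 the pattern was absent, with MEL A and B at 0.429 and 0.525 times the scaled input and ES-EP A and B at 0.596 and 0.264 times. Over the whole regions of Jak1, Tyk2, Stat3 and Cish both ES-EP preparations were likewise above scaled input and both of MEL below it, with mean log2 ratios in MEL minus ES-EP of -0.23, -0.75, -0.56 and -0.25. These differences were not tested, and the share of all gene regions with this pattern was not computed.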

How the results depend on the processing

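Limits come from depth, since input was below 10 reads at most member sites, and from 2 preparations per cell type of unequal yield. The number of members with a site in MEL cells ran from 6 to 9 over the alternatives, while the share of all genes with one ran from 26.5% to 66.9%. In ES-EP it was 4 with library 1 alone, where 17.7% of all genes had one, 8 with 200 bp windows (53.1%) and 9 without the local background (62.2%). Leaving out 1 of its own preparations gave 3 to 7 members in ES-EP (17.3% to 46.8% of all genes) and 6 to 8 in MEL cells (26.5% to 59.1%). In the test of MEL cells against ES-EP no member site passed except 1 with limma on log2 CPM plus 0.5 (2196 of all sites passed) and 2 with median-ratio scaling (3149 of all). Of these 3 sites 2 were called in ES-EP alone, on the same reads, and the third, at the 5′ end of Stat5b, turned from -1.35 to 0.90 on ChIP minus input and to 0.95 with the ES-EP input also summed. Against 838 of all sites as reported, 23 passed on ChIP minus input (0 with the ES-EP input summed, 4010 at an unadjusted p below 0.05), 296 with at least 20 reads, 99 with library 1, 276 with library 2 and 0 to 141 with 1 preparation left out. The replicate block on the preparation letter gave 553 sites and 2 start sites, and no member passed under it. The letters deviated together with r = -0.0107 over sites and -0.228 over start sites, so they were not taken as pairs. The crossed pairing, chosen after seeing the data, called 854 start sites. Between the cell types 0 start sites passed as reported, 1 on ChIP minus input, 3 with at least 20 reads, 229 with median-ratio scaling and 0 to 1 with 1 preparation left out. In ChIP against input 660 start sites passed in MEL cells (638 higher in ChIP, 22 lower), 393 with 1000 bp windows, 200 with at least 20 reads and 135 to 1212 without 1 preparation. The balance turned with log2 CPM plus 0.5, where all 70 that passed were lower in ChIP, and with median-ratio scaling (93 higher, 389 lower). In ES-EP 535 passed, 0 with log2 CPM plus 0.5 (2354 at an unadjusted p below 0.05) and 158 to 745 without 1 preparation. With the 2 ES-EP input libraries summed, an alternative chosen after seeing the data, limma passed 2 in MEL cells. In ES-EP it then passed 0, although 1614 had an unadjusted p below 0.05. No member start site passed in any of these fits, and the cause of these shifts was not tested.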
